A study of Mus musculus with 8 samples.

Results

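A set of 10 genes that mark or drive the epithelial to mesenchymal transition (EMT) were followed by RNA-seq in mESCs and EBs with normal CTCF (WT) or with CTCF-K20R. They are Cdh1, Epcam, Cdh2, Cdh11, Snai1, Snai2, Zeb1, Zeb2, Vim and Fn1, taken by name from the 18094 genes of the expression table. Each name matched a single row, and all 10 passed the filter on low values. The cells were mESCs of the line E14Tg2A, a male mouse embryonic stem cell line, kept on mitomycin C-inactivated mouse embryo fibroblasts with LIF and the 2i inhibitors (day 0), and EBs, the aggregates that these cells formed in hanging drops in serum without LIF (day 4). WT cells carry no edit, and in CTCF-K20R cells lysine 20 of the chromatin organiser CTCF was changed to arginine with CRISPR/Cas9. Each genotype had 2 libraries on each day, 8 in all, and values below are given for the first and the second library of a group in turn. The study's methods call the libraries of a group biological replicates from independent experiments, while the labels do not name separate cultures or clones, so the spread between them may be technical, and genotype and clone cannot be told apart.

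In EMT, epithelial cells give up their junctions and polarity, become motile and take on a mesenchymal form. E-cadherin (Cdh1) holds epithelial cells together, and the zinc finger repressors of the Snail and Zeb families bind E-box sequences and switch it off, while N-cadherin (Cdh2), vimentin and fibronectin are typical of the mesenchymal state. In the embryo the transition takes place at gastrulation, when epiblast cells pass through the primitive streak to form mesoderm and endoderm. mESCs and early EBs hold epithelial cells of the epiblast kind, and mesoderm appears in EBs within days of LIF removal.

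The E-box bound by Snail and Zeb proteins reads CAGGTG, or CACCTG on the other strand. It was searched in the 250 bases before each RefSeq start site, on both strands, in the RefSeq promoter table (GRCm38.p6), which held an entry for 4 of the 10 genes, namely Epcam, Snai1, Zeb2 and Vim. The promoters of Epcam, Snai1 and Vim are shown because these genes moved in different ways in the libraries. The lines read 5′ to 3′ on the plus strand, which is the coding strand of each of these genes, with the E-box in capitals.
Epcam, chr17:87635729-87635978: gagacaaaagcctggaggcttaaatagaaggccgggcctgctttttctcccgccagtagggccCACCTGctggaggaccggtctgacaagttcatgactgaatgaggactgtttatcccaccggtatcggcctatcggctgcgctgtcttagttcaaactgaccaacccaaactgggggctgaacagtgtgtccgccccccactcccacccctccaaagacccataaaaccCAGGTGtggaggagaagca
Snai1, chr2:167537945-167538194: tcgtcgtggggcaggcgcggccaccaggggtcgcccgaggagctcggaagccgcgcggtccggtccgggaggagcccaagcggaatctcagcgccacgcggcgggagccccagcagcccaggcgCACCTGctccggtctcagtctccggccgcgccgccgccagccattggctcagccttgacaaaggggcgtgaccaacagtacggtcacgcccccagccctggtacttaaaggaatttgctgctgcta
Vim, chr2:13574061-13574310: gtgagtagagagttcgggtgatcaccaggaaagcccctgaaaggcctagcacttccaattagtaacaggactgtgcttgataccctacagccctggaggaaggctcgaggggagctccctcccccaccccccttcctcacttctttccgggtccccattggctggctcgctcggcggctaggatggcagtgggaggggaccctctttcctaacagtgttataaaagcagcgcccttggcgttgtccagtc
The Epcam promoter held 2 E-boxes, which begin 187 and 19 bases before the start. The Snai1 promoter held 1, which begins 126 bases before the start. The Vim window precedes a RefSeq start that lies within the longer gene of the GENCODE annotation used for positions. The Vim promoter and the 4 start sites of Zeb2 held 0. The motif occurred in 17.2% of all 32851 promoters listed and in 15.9% of those of genes tested. A match is a description of the letters and not a measurement of binding.

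The deposited values are normalized counts, and the libraries summed to between 19412659 and 21311513 of them. A signal of 3 reads, the limit of detection, lay at 2.43 to 3.44 normalized counts, a limit that covers counting error only. The 2 WT libraries of each day differed by less than the sampling noise (0.304 times the expected squared difference in mESCs and 0.275 times in EBs, against 3.88 and 4.27 times in CTCF-K20R mESCs and EBs), so each WT pair was averaged and counted as 1 sample, which departs from the study's description of them as independent. The error of each test thus comes from the CTCF-K20R pairs. Fold changes are on the scale of log2(value + 1), which understates those of genes with low values, and intervals are 95%. A gene was called where its log2 fold change was past 1 in either direction with an adjusted p under 0.05 (limma, Benjamini-Hochberg over 15767 genes). Ctcf itself, whose point mutation cannot be read from these values, was between 3938 and 4926 normalized counts in all libraries. The naive pluripotency markers summed to 72644 to 76080 normalized counts in the mESC libraries.

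In day 4 EBs, CTCF-K20R cells had more Cdh1 and far less of most mesenchymal genes than WT cells. Of the 10 genes, 1 was called higher (Cdh1) and 7 were called lower (Cdh2, Cdh11, Snai1, Zeb1, Zeb2, Vim and Fn1), while Epcam fell short of the fold threshold and Snai2 did not pass the test. Over all genes tested, 6.89% were called higher and 8.65% lower in this comparison, so that higher genes were 44.3% of the calls, and 53.7% after quantile normalization. Expressed as a share of the WT EB level, the CTCF-K20R EBs held 237% for Cdh1, 151% for Epcam, 62.6% for Snai2, 28.1% for Zeb2, 23.2% for Zeb1, 19.3% for Vim, 8.23% for Fn1, 5.37% for Snai1, 3.27% for Cdh2 and 1.12% for Cdh11. In RNA from whole EBs, fewer cells of a type and less RNA per cell cannot be told apart.

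In mESCs, before differentiation, the genotypes were much closer. Only Epcam among the 10 genes was called, and it was lower in CTCF-K20R cells, so that 0 were called higher and 1 lower. Cdh1 and Vim also passed the adjusted p, with a change smaller than the fold threshold, and with no such threshold and an unadjusted p under 0.05 (limma) 1 of the 10 genes was higher and 3 were lower. The share of all genes at that looser limit was not computed. At the thresholds of a call, 1.19% of all genes tested on day 0 were higher and 2.6% lower. Higher genes made up 31.4% of these calls, and 41.9% after quantile normalization.

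**Figure D1:**
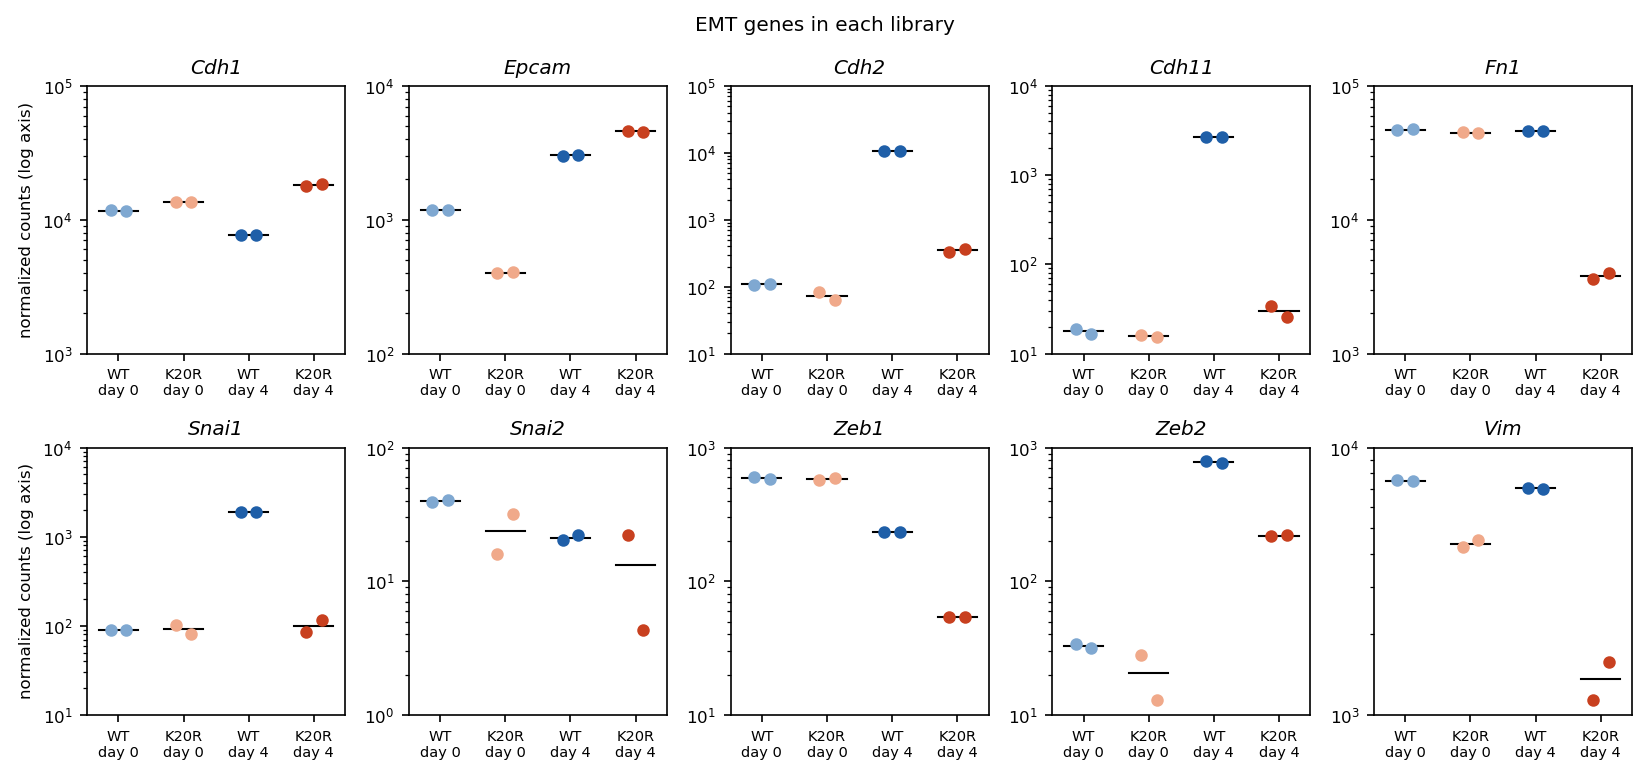
Normalized counts (log axis) of the 10 EMT genes in each of the 8 libraries, by genotype and day, with a point per library and a line at the mean of each group. Cdh2, Cdh11 and Snai1 reach 1872 to 10661 in WT EBs and stay at or below 371 in the CTCF-K20R libraries, Fn1 lies between 44384 and 47340 in every group but CTCF-K20R EBs, and Snai2 stays at or below 40.5 in every library.

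**Figure D2:**
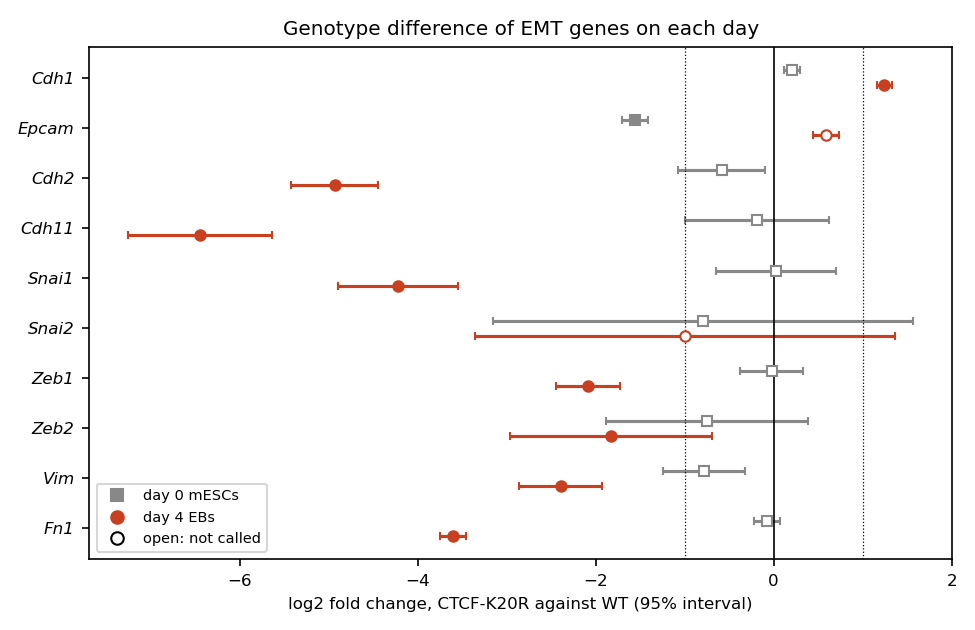
Log2 fold change of CTCF-K20R against WT cells for each gene on day 0 (squares) and day 4 (circles), with 95% intervals, filled where the gene was called and open where it was not. On day 4 Cdh1 lies at 1.25 and 7 genes lie between -6.44 and -1.83, whereas on day 0 Epcam at -1.56 is the single filled point.

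The 2 epithelial adhesion genes took different courses. Cdh1, whose product E-cadherin forms adherens junctions, measured 11746 and 11698 normalized counts in WT mESCs, 13557 and 13476 in CTCF-K20R mESCs, 7650 and 7666 in WT EBs, and 17798 and 18538 in CTCF-K20R EBs. No group overlapped another, and the order ran from CTCF-K20R EBs over CTCF-K20R mESCs and WT mESCs down to WT EBs. Cdh1 was thus 2.37-fold higher in CTCF-K20R than in WT EBs (log2 fold change 1.25, standard error 0.036, interval 1.16 to 1.34, adjusted p = 3.02e-05). On day 0 the log2 fold change was 0.21 (standard error 0.036, adjusted p = 0.0201). The 50 tested genes nearest to Cdh1 were shifted as well, with medians of 0.55 on day 4 and 0.59 on day 0. From day 0 to day 4 Cdh1 changed by -0.61 on the log2 scale in WT cells, with no replicate check, and by 0.43 in CTCF-K20R cells (adjusted p = 0.000134).

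Epcam, the epithelial cell adhesion molecule, measured 1182 and 1186 normalized counts in WT mESCs, 398 and 407 in CTCF-K20R mESCs, 3018 and 3039 in WT EBs, and 4615 and 4524 in CTCF-K20R EBs. CTCF-K20R cells were therefore the lowest group before differentiation and the highest group after it, without overlap. The log2 fold change against WT was -1.56 on day 0 (standard error 0.058, interval -1.70 to -1.41, adjusted p = 0.000756) and 0.59 on day 4 (interval 0.45 to 0.74, adjusted p = 0.00106), the latter short of the fold threshold. The call on day 0 was lost when either CTCF-K20R EB library was left out of the shared fit, with an adjusted p of 0.0589 without the first and 0.0588 without the second and the same fold change. Between the days Epcam rose by 3.50 on the log2 scale in CTCF-K20R cells (adjusted p = 1.59e-06) and changed by 1.35 in WT cells.

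The mesenchymal cadherins had the widest gap between the genotypes among the 10 genes on day 4. Cdh2, which encodes N-cadherin, measured 107 and 111 normalized counts in WT mESCs, 82.4 and 63.6 in CTCF-K20R mESCs, 10643 and 10661 in WT EBs, and 326 and 371 in CTCF-K20R EBs. The WT EB level was 97.7 times that of WT mESCs, whereas CTCF-K20R EBs reached 4.77 times the level of their mESCs. The day 4 log2 fold change was -4.93 (standard error 0.196, interval -5.42 to -4.44, adjusted p = 7.37e-05), and the day 0 difference of -0.58 did not pass the test (adjusted p = 0.108). The rise within CTCF-K20R cells was itself called (log2 fold change 2.25, adjusted p = 0.000151).

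Cdh11, a cadherin of mesenchymal cells, measured 18.9 and 16.8 normalized counts in WT mESCs, 16.0 and 15.2 in CTCF-K20R mESCs, 2681 and 2694 in WT EBs, and 34.3 and 26.0 in CTCF-K20R EBs. WT EBs stood far above the rest, and both CTCF-K20R EB libraries lay above the mESC libraries. The log2 fold change was -6.44 on day 4 (standard error 0.323, interval -7.25 to -5.64, adjusted p = 0.000138) and -0.19 on day 0 (adjusted p = 0.737). Within CTCF-K20R cells Cdh11 changed by 0.90 from day 0 to day 4 (adjusted p = 0.0308), short of the fold threshold.

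The balance of the 2 classical cadherins was compared within each library as the ratio of Cdh1 to Cdh2, each per kilobase of the longest coding transcript. The ratio was 120 and 116 in WT mESCs, 180 and 232 in CTCF-K20R mESCs, 0.786 and 0.786 in WT EBs, and 59.7 and 54.6 in CTCF-K20R EBs. Cdh2 was thus more abundant per kilobase than Cdh1 only in WT EBs, the group in which Cdh1 was lowest and Cdh2 highest.

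Among the transcription factors, Snai1, Zeb1 and Zeb2 were lower in CTCF-K20R EBs, each from a different starting point. Snai1, which encodes the Snail repressor and whose promoter with 1 E-box is printed above, measured 89.2 and 90.5 normalized counts in WT mESCs, 103 and 80.9 in CTCF-K20R mESCs, 1887 and 1872 in WT EBs, and 85.2 and 117 in CTCF-K20R EBs. Apart from WT EBs, the groups overlapped. The log2 fold change was -4.22 on day 4 (standard error 0.271, interval -4.90 to -3.55, adjusted p = 0.000264) and 0.02 on day 0 (interval -0.65 to 0.70, adjusted p = 0.965). Snai1 did not pass the test between CTCF-K20R EBs and mESCs (log2 fold change 0.12, interval -0.43 to 0.68, adjusted p = 0.660), and the sign of this small value changed after quantile normalization.

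Snai2, which encodes the related repressor Slug, stayed low in every group. Its values were 39.4 and 40.5 normalized counts in WT mESCs, 16.0 and 31.8 in CTCF-K20R mESCs, 20.2 and 22.2 in WT EBs, and 22.3 and 4.32 in CTCF-K20R EBs. The CTCF-K20R EB libraries differed from each other by more than the means of the EB groups did, and the fold change on day 4 (log2 fold change -0.999, interval -3.36 to 1.36, adjusted p = 0.444) turned to 0.07 without the second of them. On day 0 the log2 fold change was -0.79 (adjusted p = 0.617). The ratio of Snai1 to Snai2 per kilobase was 116 and 105 in WT EBs, and between 2.79 and 33.6 in the other libraries.

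Zeb1 and Zeb2 encode paired zinc finger homeobox repressors, and they ran in opposite directions over the 4 days. Zeb1 measured 600 and 582 normalized counts in WT mESCs, 576 and 588 in CTCF-K20R mESCs, 232 and 235 in WT EBs, and 54.4 and 53.9 in CTCF-K20R EBs. The mESC groups overlapped, and both EB groups lay below them, the CTCF-K20R EBs lowest. The log2 fold change was -2.09 on day 4 (standard error 0.142, interval -2.44 to -1.73, adjusted p = 0.000322) and -0.02 on day 0 (adjusted p = 0.939). The change over time was -1.34 on the log2 scale in WT cells and -3.40 in CTCF-K20R cells (adjusted p = 1.37e-05).

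Zeb2 measured 33.7 and 31.7 normalized counts in WT mESCs, 28.0 and 12.9 in CTCF-K20R mESCs, 792 and 771 in WT EBs, and 218 and 221 in CTCF-K20R EBs. It was the one factor of the 4 that rose in CTCF-K20R cells on differentiation (log2 fold change 3.46, adjusted p = 0.000690), and it changed by 4.54 in WT cells. The day 4 log2 fold change was -1.83 (standard error 0.453, interval -2.96 to -0.69, adjusted p = 0.0251). This call was lost without either CTCF-K20R EB library, with an adjusted p of 0.169 and 0.167, although the fold change stayed at -1.82 and -1.84. Per kilobase, Zeb1 exceeded Zeb2 between 28.0 and 72.0 times in the mESC libraries, and the ratio was between 0.383 and 0.479 in the EB libraries of both genotypes.

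The filament and matrix genes were abundant in mESCs and in WT EBs and lowest in CTCF-K20R EBs. Vim, which encodes the intermediate filament vimentin, measured 7528 and 7496 normalized counts in WT mESCs, 4235 and 4510 in CTCF-K20R mESCs, 7075 and 7020 in WT EBs, and 1134 and 1584 in CTCF-K20R EBs. CTCF-K20R cells were below WT cells on both days. The log2 fold change was -2.39 on day 4 (standard error 0.186, interval -2.86 to -1.93, adjusted p = 0.000502) and -0.78 on day 0 (interval -1.25 to -0.32, adjusted p = 0.0463), the latter short of the fold threshold. The change over time was -1.70 in CTCF-K20R cells (adjusted p = 0.000346) and -0.09 in WT cells, the last of which turned to 0.20 after quantile normalization.

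Fn1, which encodes the matrix protein fibronectin, measured 46708 and 47340 normalized counts in WT mESCs, 45080 and 44384 in CTCF-K20R mESCs, 46096 and 46007 in WT EBs, and 3602 and 3976 in CTCF-K20R EBs. The CTCF-K20R EBs stood alone at a low level. The log2 fold change was -3.60 on day 4 (standard error 0.059, interval -3.75 to -3.46, adjusted p = 1.02e-05) and -0.07 on day 0 (interval -0.22 to 0.08, adjusted p = 0.459). From day 0 to day 4 Fn1 fell by 3.56 on the log2 scale in CTCF-K20R cells (adjusted p = 1.59e-06). The WT change of -0.03 turned to 0.11 after quantile normalization.

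Fibroblasts express several of these genes, and the mESCs were grown on them. The 16 fibroblast markers together measured 817 to 821 normalized counts in WT mESCs, 657 to 746 in CTCF-K20R mESCs, 1613 to 1666 in WT EBs and 1341 to 1420 in CTCF-K20R EBs. In every mESC library 5 of the 16 were at or under the limit of detection, Col3a1 among them, while Col1a1 was between 16.0 and 34.3. The sums hide differences in both directions, since of 13 tested 2 were called higher and 1 lower in CTCF-K20R mESCs. Named after their values were seen, these were Pdgfrb (log2 fold change 1.42), Fbln2 (1.47) and Thy1 (-2.14), against 1.19% and 2.6% of all genes. The markers of definitive endoderm, which like mesoderm forms at gastrulation, summed to 15015 and 15020 in WT EBs and to 227 and 206 in CTCF-K20R EBs. Naive pluripotency markers summed to 2421 and 2417 in WT EBs and to 7407 and 7015 in CTCF-K20R EBs. Of these 7 genes 4 were called higher and 1 lower, against 6.89% and 8.65% of all genes. The lower one was Klf4 (log2 fold change -1.48, named after its value was seen). Markers of the primed epiblast, an epithelial tissue, summed to 22351 and 22339 in WT EBs and to 46396 and 47846 in CTCF-K20R EBs. Of these 4 genes 2 were called higher, Pou3f1 and the most abundant, Dnmt3b (log2 fold change 1.36, named after its value was seen). Fgf5 (-0.21) and Otx2 (-0.12) did not pass the test. Neural markers summed to 2560 to 2612 in WT EBs and to 3130 to 3325 in CTCF-K20R EBs. Of 7 neural markers tested, 2 were called higher, Sox1 (log2 fold change 4.17) and Pax6 (2.61), and 0 lower, against 6.89% and 8.65% of all genes. Nes (0.41) was not called. Named after their values were seen, Tubb3 (0.73), Zic1 (-0.35), Map2 (-1.16) and Dcx (-1.66) were not called either. Markers of extraembryonic endoderm summed to 122 and 64.3 in WT mESCs and to 42.0 and 37.0 in CTCF-K20R mESCs. In EBs they summed to 185 and 181 in WT and to 373 and 305 in CTCF-K20R libraries. Of 4 tested, 1 was called higher in CTCF-K20R EBs and 0 lower, against 6.89% and 8.65% of all genes. The part of these cell types in the differences between EBs was not tested.

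The difference between the genotypes changed from day 0 to day 4 for 8 of the 10 genes by the test of the interaction. Of these, 2 were called higher (Cdh1 and Epcam) and 6 lower (Cdh2, Cdh11, Snai1, Zeb1, Vim and Fn1), against 6.84% and 6.04% of all genes tested. Zeb2 did not pass (log2 difference -1.08, adjusted p = 0.270), and neither did Snai2 (log2 difference -0.20, adjusted p = 0.927). The value of Zeb2 was -1.61 and called without the second CTCF-K20R mESC library (adjusted p = 0.0396), and that of Cdh1 was 0.83 and no longer called after quantile normalization. Over the 4 days CTCF-K20R cells raised 3 of the 10 genes (Cdh2, Epcam and Zeb2) and lowered 3 (Zeb1, Vim and Fn1), against 14.5% and 11.6% of all genes. In WT cells 5 of the 10 genes lay past 2-fold higher (Epcam, Cdh2, Cdh11, Snai1 and Zeb2) and 1 past 2-fold lower (Zeb1), against 18.9% and 16.3% of all genes, with no replicate check. Both changes share their libraries with the genotype comparisons.

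Members of the wider epithelial programme differed in both directions. Of 34 genes of junctions, polarity and epithelial keratins tested, 7 were called higher and 4 lower in CTCF-K20R EBs. Over all genes 6.89% were called higher and 8.65% lower, and the lower count is close to that share. The median log2 fold change of the 34 was 0.48 (25 positive), against 0.01 over all genes. Marveld3, a tight junction protein, measured 78.0 and 75.2 normalized counts in WT EBs against 337 and 397 in CTCF-K20R EBs (log2 fold change 2.24, adjusted p = 0.0167), and its call was lost without either CTCF-K20R EB library. The scaffold gene Tjp3 measured 110 and 113 against 403 and 389 (log2 fold change 1.82, adjusted p = 0.000450), and the claudin gene Cldn4 297 and 296 against 891 and 889 (log2 fold change 1.58, adjusted p = 0.000110). The 4 lower genes were Krt8, Dsp, Krt19 and Dsc2, which serve keratin filaments and desmosomes. Other listed genes of these structures, named after their values were seen, were not called. Krt18 (log2 fold change -0.42) and Krt7 (-0.24) had negative values, and Jup (0.43), Pkp2 (0.87), Pkp3 (0.98) and Dsg2 (0.22) positive ones. Krt8 measured 7514 and 7504 normalized counts in WT EBs against 1091 and 969 in CTCF-K20R EBs (log2 fold change -2.87, adjusted p = 4.66e-05), and the desmoplakin gene Dsp 3822 and 3810 against 614 and 682 (log2 fold change -2.56, adjusted p = 6.90e-05). Krt19 had a log2 fold change of -1.51 (adjusted p = 0.00235) and Dsc2, which was named after its value was seen, of -1.21 (adjusted p = 0.0201).

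Of 10 regulators of epithelial identity, 1 was called higher (Esrp2) and 1 lower (Elf3) in CTCF-K20R EBs, and the median was 0.38. A single call of 10 in each direction is close to the 6.89% and 8.65% of all genes. Esrp2, a splicing regulator of epithelial cells, measured 104 and 115 normalized counts in WT EBs against 327 and 252 in CTCF-K20R EBs (log2 fold change 1.38, adjusted p = 0.00486), and it lies near Cdh1, among genes with a median of 0.60 on day 4. Elf3, an epithelial ETS factor, measured 641 and 622 against 231 and 218 (log2 fold change -1.49, adjusted p = 0.000161). The counts rest on few genes, since 2 were called higher without the second CTCF-K20R mESC library and 2 lower without the first CTCF-K20R EB library.

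Other transcription factors tied to EMT were mostly lower in CTCF-K20R EBs. Of 17 tested, 10 were called lower and 2 higher, against 8.65% and 6.89% of all genes, with a median log2 fold change of -1.52. Gsc, a homeobox gene of the organizer, measured 931 and 936 normalized counts in WT EBs against 20.5 and 24.5 in CTCF-K20R EBs (log2 fold change -5.32, adjusted p = 0.000449). The forkhead gene Foxc1 measured 389 and 388 against 18.5 and 11.7 (log2 fold change -4.63, adjusted p = 0.00120), and the chromatin protein gene Hmga2 10692 and 10706 against 953 and 857 (log2 fold change -3.56, adjusted p = 2.83e-05). The higher genes included the third Snail family gene Snai3, named after its value was seen, at 14.4 and 12.9 against 78.0 and 72.2 (log2 fold change 2.38, adjusted p = 0.0482). The count of higher genes was 1 without the second WT EB library or the second CTCF-K20R EB library and 0 without the first CTCF-K20R EB library.

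Of 23 other mesenchymal structural genes, 6 were called lower and 0 higher in CTCF-K20R EBs, against 8.65% and 6.89% of all genes. At an unadjusted p under 0.05 (limma) with no minimum fold change, 3 were higher and 10 lower. The share of all genes at this looser limit was not computed. The median log2 fold change of the 23 was -0.27. Tgfbi, a matrix protein gene, measured 67.2 and 65.7 normalized counts in WT EBs against 6.85 and 8.72 in CTCF-K20R EBs (log2 fold change -2.95, adjusted p = 0.00121). The membrane protease gene Mmp14 measured 1885 and 1895 against 269 and 260 (log2 fold change -2.83, adjusted p = 0.000104). The adhesion molecule gene Ncam1 measured 314 and 311 against 48.0 and 63.0 (log2 fold change -2.48, adjusted p = 0.00225), a call that was lost without the first CTCF-K20R EB library.

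Of 9 other cadherins tested, 2 were called higher and 3 lower in CTCF-K20R EBs, against 6.89% and 8.65% of all genes, with a median of -0.67. Cdh3, which encodes the epithelial P-cadherin, was higher like Cdh1, with 151 and 154 normalized counts in WT EBs against 575 and 545 in CTCF-K20R EBs (log2 fold change 1.87, adjusted p = 0.000228). Cdh4, which encodes R-cadherin, measured 499 and 526 against 187 and 101 (log2 fold change -1.89, adjusted p = 0.0105), a call that was lost without the mean-variance trend (adjusted p = 0.0607). The remaining calls, named after their values were seen, were Cdh9 at a log2 fold change of 3.58 (adjusted p = 0.00114), Cdh6 at -3.77 (adjusted p = 0.00321) and Cdh20 at -5.11 (adjusted p = 0.00182). These 3 genes were under 190 normalized counts in all libraries.

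Signals and factors that act upstream of EMT at gastrulation had the lowest median of the 6 lists. Of 20 tested, 13 were called lower and 1 higher in CTCF-K20R EBs, against 8.65% and 6.89% of all genes. The median log2 fold change was -2.51, also with genes at the limit of detection set to it. Mesp1, a factor of early cardiac mesoderm, measured 1697 and 1693 normalized counts in WT EBs against 2.40 and 1.07 in CTCF-K20R EBs, which is at least 493-fold lower when the limit of detection is used for the latter. Msgn1, a factor of presomitic mesoderm, measured 881 and 884 in WT EBs and 0 in both CTCF-K20R EB libraries, at least 257-fold lower. The WNT enhancer gene Rspo3 measured 1777 and 1788 against 33.1 and 48.2 (log2 fold change -5.44, adjusted p = 0.000732). Nodal, the signal that induces the primitive streak, was the 1 higher gene, at 777 and 757 against 1899 and 1942 (log2 fold change 1.32, adjusted p = 0.000102).

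**Figure D3:**
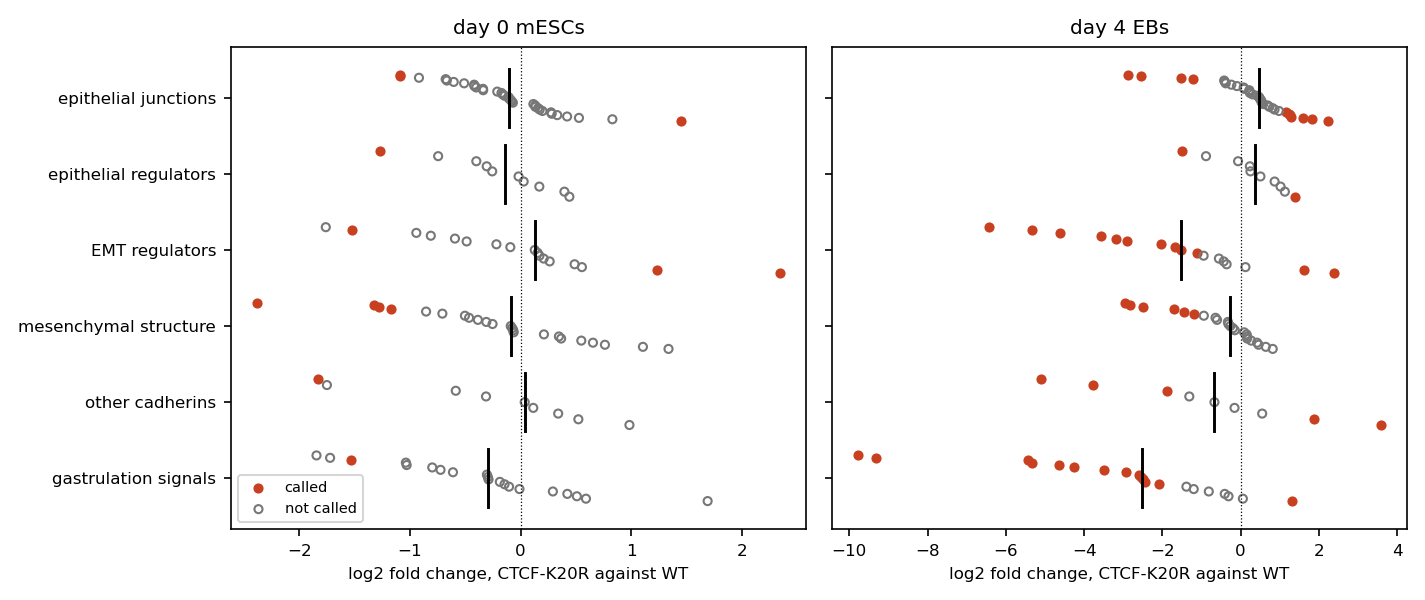
Log2 fold change of CTCF-K20R against WT cells for every gene tested in the 6 lists, on day 0 (left) and day 4 (right), with filled points for called genes, open points for the others and a bar at the median of each list; genes at the limit of detection are drawn at their fitted value, and the horizontal scales differ. On day 4 the medians run from 0.48 for epithelial junctions to -2.51 for gastrulation signals, and on day 0 each lies within 0.30 of 0.

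On day 0 the same lists held fewer calls than on day 4, as did all genes tested (1.19% higher and 2.6% lower). The junction list had 1 higher (Marveld2, log2 fold change 1.44, adjusted p = 0.0124) and 2 lower genes (Krt19 at -1.09, adjusted p = 0.0188, and Cldn6 at -1.09, adjusted p = 0.00166), and the epithelial regulators had 0 higher (0 also at an unadjusted p under 0.05, limma) and 1 lower (Grhl2 at -1.27, adjusted p = 0.0147). Of the 17 EMT factors 2 were higher, a larger share than the 1.19% of all genes. These included Gsc (log2 fold change 2.34, adjusted p = 0.0188), and 1 factor was lower (Lef1 at -1.52, adjusted p = 0.00227). Gsc thus had opposite signs on the days, and its mESC values were 5.79 and 4.84 normalized counts in WT libraries and 38.7 and 24.8 in CTCF-K20R libraries. Of the 23 structural genes 4 were lower, a larger share than the 2.6% of all genes. Among them were Tgfbi (log2 fold change -2.38, adjusted p = 0.00811), Has2 (-1.32, adjusted p = 0.0246) and, named after its value was seen, Mmp14 (-1.17, adjusted p = 0.00560). The other cadherins had 1 lower (Cdh22 at -1.83, adjusted p = 0.0295, named after its value was seen), and the gastrulation list had 1 lower (T, the brachyury gene, at -1.53, adjusted p = 0.00291). Without either CTCF-K20R EB library, which enters the shared estimate of the spread, each of these day 0 counts was 0.

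Most genes near Cdh1 had positive fold changes in CTCF-K20R cells. Cdh1 lies on chromosome 8 of GRCm38 from 106603351 to 106670246, and the 25 nearest tested genes on each side had log2 fold changes with a median of 0.55 on day 4 (42 of 50 positive, 9 called higher and 1 lower) and of 0.59 on day 0 (44 of 50 positive). Relative to this median the log2 fold change of Cdh1 was 0.70 on day 4, below the fold threshold, and -0.39 on day 0. Of the genes named above as higher on day 4, Cdh3 (106510891 to 106557297) and Esrp2 (106130319 to 106136974) lie just before it and Marveld3 (109947914 to 109962203) starts 3.34 Mb beyond its start. Cdh11 lies on the same chromosome from 102632095 to 102785642, among genes with a median of 0.44 on day 4 and 0.63 on day 0 (46 of 50 positive), and its own day 4 value relative to them was -6.89. Relative to their own nearest genes, an alternative chosen after seeing the data, the day 4 values were 1.32 for Cdh3, 1.61 for Marveld3 and 0.78 for Esrp2, the last below the fold threshold. Ctcf, the edited gene, starts 0.967 Mb from the start of Cdh1, in the same stretch, and its log2 fold change was 0.19 on both days. Whether the shift of the neighbours is a part of the Cdh1 difference was not tested.

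**Figure D4:**
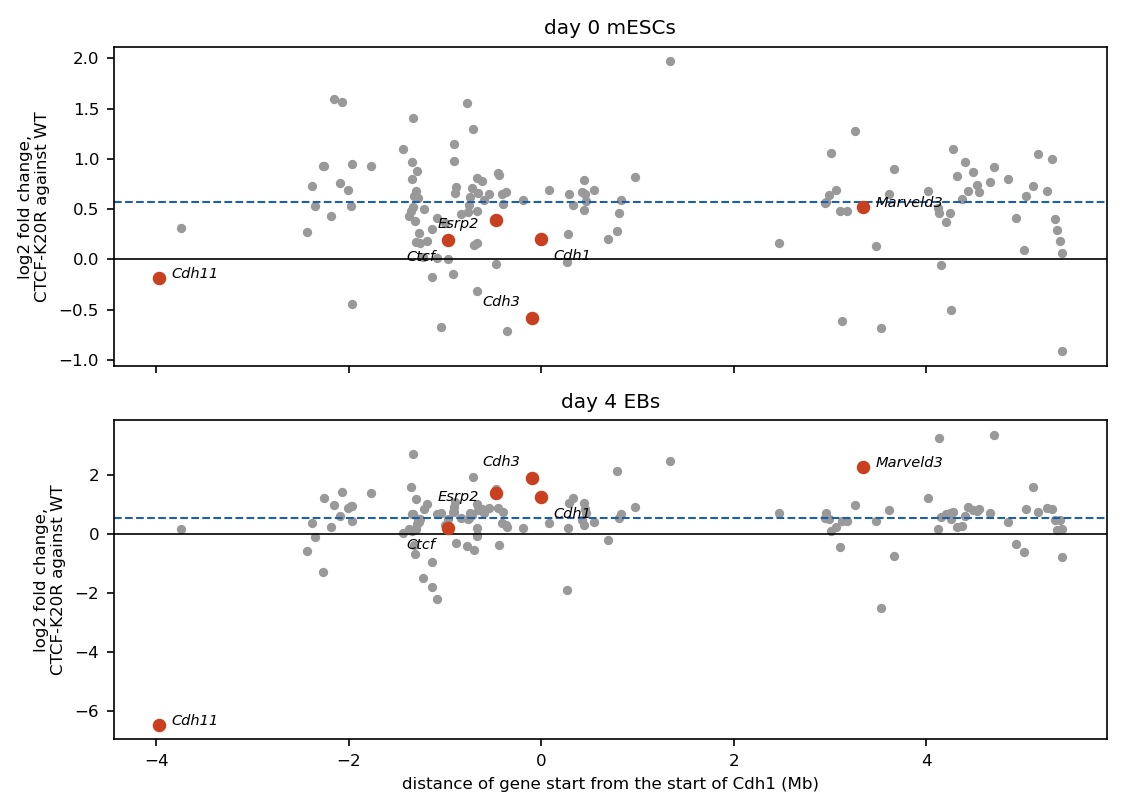
Log2 fold change of CTCF-K20R against WT cells for the 136 tested genes that start within 6 Mb of Cdh1, by distance from its start, on day 0 (top) and day 4 (bottom), with the median as a dashed line and genes of the text in red. The medians are 0.57 on day 0 and 0.55 on day 4, and Cdh1 ranks 107th from the top on day 0 and 15th on day 4.

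The other genes lay among neighbours with medians between -0.36 and 0.16 on both days. Epcam is on chromosome 17 (87635979 to 87651129), where 39 neighbours had medians of 0.06 on day 4 and -0.05 on day 0. Chromosome 2 carries Snai1 (167538195 to 167542814), Zeb2 (44983632 to 45117395) and Vim (13573927 to 13582826), chromosome 16 carries Snai2 (14705852 to 14709385) and chromosome 1 carries Fn1 (71585520 to 71653200). Chromosome 18 carries Cdh2 (16588877 to 16809246) and Zeb1 (5591860 to 5775467), and the 38 neighbours of Zeb1 had the lowest median, -0.36 on day 4. Annotated transcripts overlap Cdh11, Zeb1 and Zeb2 on the same strand and Cdh2, Zeb1, Zeb2 and Fn1 on the other strand, so their reads may be shared with these.

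The gene whose pattern was most like that of each EMT gene was sought by Pearson correlation of log2(value + 1) over the 6 samples, among the 11060 genes that averaged 100 normalized counts or more. These are descriptions of shape over 4 groups in shared libraries, and the size of the change can differ. Cdh1 was nearest to Prph (r = 0.999), Epcam to Gsto1 (r = 0.999), Cdh2 to Peg3 (r = 0.997), Cdh11 to Stt3b (r = 0.998) and Snai1 to Nrbp1 (r = 0.999). Zeb1 was nearest to Igf2bp2 (r = 0.998), Zeb2 to Jagn1 (r = 0.998), Vim to Fbln1 (r = 0.999), Fn1 to Slc6a6 (r = 1.00) and Snai2 to Dzank1 (r = 0.969). Peg3, a paternally expressed zinc finger gene, repeated the course of Cdh2 at a higher level, with 30945 and 30908 normalized counts in WT EBs against 3150 and 3291 in CTCF-K20R EBs. Stt3b, by contrast, differed little, with 5203 and 5151 in WT EBs against 4284 and 4242 in CTCF-K20R EBs. Between 9 and 49 genes exceeded an r of 0.99 for each EMT gene but Snai2, for which 0 did.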

How the data were processed

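The authors made mRNA-seq libraries, trimmed the reads with Trim Galore, ran salmon on mm10 transcripts, used tximport to obtain gene-level counts and scaled these with DESeq2. The deposited signal per gene and library is these normalized counts for 18094 genes and 8 libraries. The annotation release and the use of strand in counting are not given in the sources used here. Whole reads could not be recovered, so no count model was used.

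A linear model in limma 3.58.1 (R 4.3.3) was fitted to log2(value + 1) (a mean for each of 4 groups, mean-variance trend, 2-sided) over genes that averaged 10 normalized counts or more, with Benjamini-Hochberg adjustment. A call needed a log2 fold change past 1 in size with an adjusted p under 0.05, as in the study. Each pair of WT libraries was averaged to 1 sample after the replicate comparison, so the WT change between days has no test. Contrasts set CTCF-K20R against WT cells on each day, and comprised the difference between days and the change of each genotype between days. The fit was tested on simulated data. Positions and transcript lengths came from GENCODE vM21 (GRCm38), in which 17948 identifiers were found, and promoters from RefSeq (GRCm38.p6). Python 3.11.15, pandas 2.3.3 and matplotlib 3.10.9 were used.

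The genes, the lists and the alternatives were chosen with earlier results of these data known. Genes named are the 10 EMT genes, Ctcf and, in each list, the called genes that averaged 100 normalized counts or more and had the largest change, up to 3 in each direction on day 4 and up to 2 on day 0, with markers among the first 3 of their list and the nearest gene by pattern. Some genes that meet this rule are not reported here. Nectin2, Nectin3, Afdn and Epb41l5 were matched by identifier to older symbols. Replicate numbers are not stated to pair the libraries. Alternatives were all 8 libraries as separate samples, the same with the replicate number as a block, pseudocounts of 0.1 and 5, no filter and a mean of at least 50, quantile normalization, fitting only the libraries compared, no trend, other thresholds, leaving out each library and values relative to the nearest genes, which for Cdh3, Esrp2 and Marveld3 were chosen after seeing the data. The binding, accessibility and contact data of the study were not used here.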

Additional observations from a re-analysis of the deposited data

Results flagged for a closer look

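The genotype difference on day 4 minus that on day 0 passed the test of the interaction (limma, with Benjamini-Hochberg adjustment over all genes tested) for 8 of the 10 EMT genes. On the log2 scale it was -6.26 for Cdh11 (adjusted p = 0.000878), -4.35 for Cdh2 (adjusted p = 0.000592), -4.25 for Snai1 (adjusted p = 0.00156), -3.53 for Fn1 (adjusted p = 7.39e-05), -2.07 for Zeb1 (adjusted p = 0.00197) and -1.61 for Vim (adjusted p = 0.0101). It was 2.15 for Epcam (adjusted p = 0.000158), which changed from lower to higher against WT, and 1.04 for Cdh1 (adjusted p = 0.000283). The value of Cdh1 was near the fold threshold, and at 0.83 it was no longer called after quantile normalization. Over all genes tested, 6.84% were called higher and 6.04% lower in the interaction.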

How the results depend on the processing

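Of 776 alternative values of the fold changes of the 10 EMT genes in tested comparisons, 751 kept their direction and their side of the thresholds. Many of these could hardly differ. Leaving out a WT library or one outside the comparison moves the fold change little or not at all. Other thresholds leave the fold change as it was. With no minimum fold change, 2 genes were called higher on day 4, 1 higher and 2 lower on day 0 (Cdh1, and Epcam with Vim), and 5 higher over time in CTCF-K20R cells, by construction. After quantile normalization 1 gene was called higher in the interaction, since Cdh1 fell to 0.83, and 2 lay past 2-fold lower over time in WT cells (Snai2 and Zeb1). Leaving out single libraries gave 0 to 1 lower gene on day 0. The sign turned for values that had not been called or were small: Snai1 over time in CTCF-K20R cells to -0.075 after quantile normalization and Cdh1 on day 0 to -0.39 relative to its neighbours. Leaving out single libraries gave ranges that cross 0 for Snai2 on day 4 (-2.06 to 0.066) and in the interaction (-1.27 to 0.86), and for Snai1 on day 0 (-0.15 to 0.20) and over time in CTCF-K20R cells (-0.10 to 0.35). The causes were not tested. Zeb2 on day 4 also lost its call with no filter on low values (adjusted p = 0.0681, limma) and with no trend (adjusted p = 0.0902), and Vim in the interaction lost it with no trend (adjusted p = 0.0802). Of 456 list counts, 361 stayed within 1.5 times. Snai2 has no value with a mean of at least 50.

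Deviations from the group means of libraries with the same replicate number correlated between -0.044 and 0.021 across genes. With a WT group the correlation cannot show whether the numbers pair the libraries, because WT libraries held no spread beyond counting error. Between CTCF-K20R EBs and CTCF-K20R mESCs, the comparison without a WT group, it was -0.044, which gave no sign of pairing. With all 8 libraries as separate samples and the replicate block, 1 EMT gene was called higher and 7 lower on day 4, and the counts of the other tested comparisons were also those of the main analysis. The error rests on a pair of libraries per day, and the lower Snai2 value in CTCF-K20R EBs, 4.32 normalized counts, is close to the limit of detection.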
